A study of Bos grunniens with 18 samples.

Results

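The m6A map of the anestrus yak ovary was described from 1 list of peaks, in which the authors set RNA immunoprecipitated with an m6A antibody against input RNA. Every complete entry of the part of the list analysed here was taken, which gave 9 peaks in 6 genes. The other 2 reproductive stages contributed 18 complete entries (estrus) and 282 (pregnancy), which brings the total to 309. The file of each stage ended in an incomplete line, so these totals do not compare the stages. Within the stretch that all 3 lists cover, the counts were 9 for anestrus, 5 for estrus and 6 for pregnancy. The ovaries came from yaks (Bos grunniens) aged 6 years. They were collected in April for anestrus (YO-A), in August for estrus (YO-F) and in December for pregnancy (YO-P), with 3 immunoprecipitated and 3 input libraries per stage. Stage and month of collection therefore cannot be told apart, and pieces of ovary mix follicles, stroma, vessels and blood cells. The paper reported a corpus luteum in pregnancy, a corpus rubrum or corpus luteum in estrus and neither in anestrus, so the structure of the ovary also differed with stage. The 3 anestrus immunoprecipitations are merged in the list, so a peak has no replicate error, and the lists hold no read counts, so the depth behind an enrichment is unknown. All 9 peaks lie on chromosome 1, on its plus strand, the last ending at 22449705, and the description covers that stretch and not the whole transcriptome.

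N6-methyladenosine (m6A) is the methylated form of adenosine that is most common inside mammalian mRNA. A writer complex built around METTL3 and METTL14 deposits it, the demethylases FTO and ALKBH5 can remove it, and reader proteins with a YTH domain bind it and influence the splicing, translation and decay of the transcript. In many mammalian tissues m6A is concentrated near stop codons and in 3′ UTRs, and in the ovary it is known from studies of oocyte growth and maternal RNA decay. None of the 21 genes of a list of writers, erasers and readers is among the 173 genes of the expression table analysed here, so 0 of them can be described. Of 43 marker genes for ovarian and other cell types, 2 are in the table, both of leukocytes, so the tissue label could not be checked against ovarian markers.

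The 6 genes with an anestrus peak were VGLL3, RBM11, USP25, CHODL, NCAM2 and ENSBGRG00000000034, which has neither a symbol nor a description in the files. VGLL3 is a transcriptional cofactor that binds TEAD factors, the partners of the Hippo pathway. RBM11 is an RNA-binding protein that regulates splicing, and USP25 removes ubiquitin from proteins. CHODL (chondrolectin) is a membrane protein with a lectin domain, and NCAM2 is a cell adhesion molecule of the immunoglobulin family. VGLL3 held 3 peaks, USP25 held 2 and the other 4 genes held 1 each, a mean of 1.5 peaks per gene. By the authors' annotation, 5 peaks (55.6%) were listed as exon, 3 (33.3%) in 3′ UTRs and 1 (11.1%) in a 5′ UTR. Each peak has 1 such label, which need not hold for all blocks of a peak that joins several. The fold enrichment, which is the ratio of immunoprecipitated over input signal, ran from 1.56 to 20.8 with a median of 5.03. The 3 peaks in 3′ UTRs had 3.48 to 6.13, and the 5 exonic peaks ran from 1.56 to 20.8 with a median of 2.06.

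The strongest enrichment was in VGLL3 (ENSBGRG00000000004, chromosome 1, 956005 to 1012265, plus strand), whose peaks had blocks near both ends of the gene and between them. The first peak (956124 to 956392) covered 269 bases of the 5′ UTR with a fold enrichment of 8.91. Its evidence was the weakest of the 9, with a log10 p of -1.95 and a log10 FDR of -1.18, so it alone had an FDR above 0.05. After a gap of 207 bases, the second peak (956600 to 969814) was assigned to exon 1 of 5 and joined a block of 14 bases to a block of 166 bases that starts at 969649. It had the largest fold enrichment of the 9, 20.8 (log10 FDR -21.2). The third peak (982761 to 1011729) held a block of 27 bases and a block of 301 bases that ended 536 bases before the end of the gene, in the 3′ UTR, with a fold enrichment of 6.13 and a log10 FDR of -40.3. VGLL3 thus carried 777 of the 2246 bases covered by the 9 peaks.

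CHODL and RBM11 each had a single unbroken peak in the 3′ UTR. The CHODL peak (18868344 to 18868581, in a gene at 18845347 to 18869739) was 238 bases long with a fold enrichment of 5.03, and it had the strongest evidence of all 9 peaks, a log10 FDR of -43.4. The RBM11 peak (14233227 to 14233527, in a gene at 14212338 to 14234545) was 301 bases long with a fold enrichment of 3.48 and a log10 FDR of -11.9. They ended 1158 and 1018 bases before the ends of their genes. Size of enrichment and strength of evidence did not run in parallel: the VGLL3 peak with a fold enrichment of 20.8 had a weaker FDR than the CHODL peak with 5.03.

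USP25 (ENSBGRG00000000031, 16016068 to 16187193) had the lowest enrichment of the 9 peaks in 1 of its 2 peaks, but not the weakest evidence. One peak (16172664 to 16186530) ran over 5 blocks of 4 to 124 bases from exon 21 of 26, with a fold enrichment of 1.56 and a log10 FDR of -3.81. The other (16186709 to 16187193), assigned to exon 25 of 26, ended at the last base of the gene and had a fold enrichment of 2.06 with a log10 FDR of -37.4. The gap between both peaks was 178 bases. NCAM2 (ENSBGRG00000000047, 21891032 to 22492928) had 1 peak of 2 blocks, 41 and 80 bases, from exon 14 of 18 (22428117 to 22449705), with a fold enrichment of 2.05 and a log10 FDR of -2.43.

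The peak of ENSBGRG00000000034 (16667823 to 16704457) was the longest by covered bases, 331 in 4 blocks of 12, 197, 50 and 72 bases, and had a fold enrichment of 8.42 with a log10 FDR of -2.79. It is annotated to exon 2 of 2 of one transcript. The mean anestrus input FPKM of the gene was 0.022, so the fold enrichment was taken over very little input RNA. The peak list gives the gene as 16680079 to 16751435, whereas the expression table gives 16586497 to 16801002, so the peak starts before the gene in the first and lies inside it in the second.

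**Figure D1:**
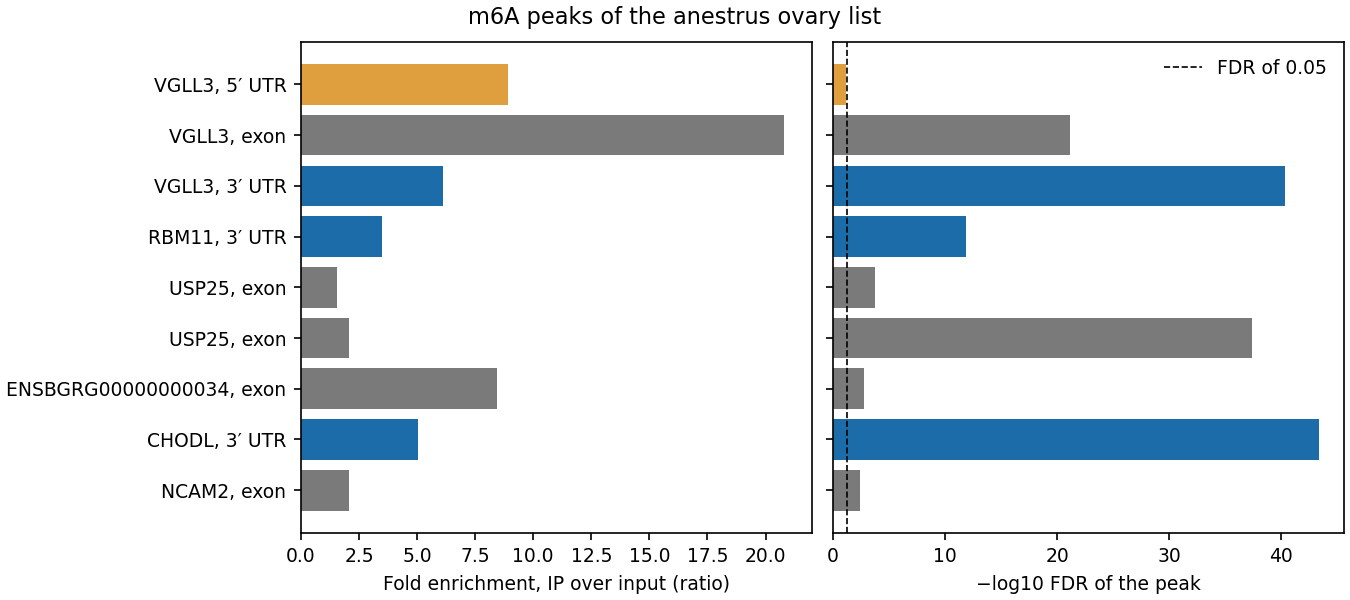
Fold enrichment of immunoprecipitated over input RNA (left, ratio) and −log10 FDR (right) of the 9 anestrus peaks in genome order, as the authors' list gives them, with 1 bar per peak coloured by annotation (orange 5′ UTR, grey exon, blue 3′ UTR). The VGLL3 exon peak is the highest on the left at 20.8, the CHODL peak is the longest bar on the right, and the VGLL3 5′ UTR peak alone falls short of the dashed line at an FDR of 0.05.

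The peaks were short in RNA even where they were long on the genome. Over the genome a peak ran from 238 to 36635 bases (median 13215), because 6 of the 9 peaks joined blocks across introns, but the blocks themselves added up to 121 to 331 bases per peak (median 269). Position was then measured along the span of each gene in the expression table, introns included. Of the 2246 bases covered, 1398 (62.2%) lay in the last 10% of the gene span. Blocks lie in exons, and how much of the exonic sequence of these genes falls in that part was not computed. The share therefore has no background to be set against. The peaks of RBM11 and CHODL and both peaks of USP25 lay entirely there, and the VGLL3 3′ UTR peak and the NCAM2 peak had most of their bases there. The peak of ENSBGRG00000000034, centred at 47.6% of the span, and the VGLL3 peaks centred at 0.45% and 22.6% made up the rest. In the same stretch, 49.2% of the 1232 covered bases of the estrus list and 21.5% of the 2242 of the pregnancy list (1 peak assigned to a minus strand gene left out) lay in the last 10%. With 1 list per stage this difference was not tested, and a single pregnancy peak of VGLL3, which begins at the first base of the gene, holds 1072 of the 2242 bases.

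**Figure D2:**
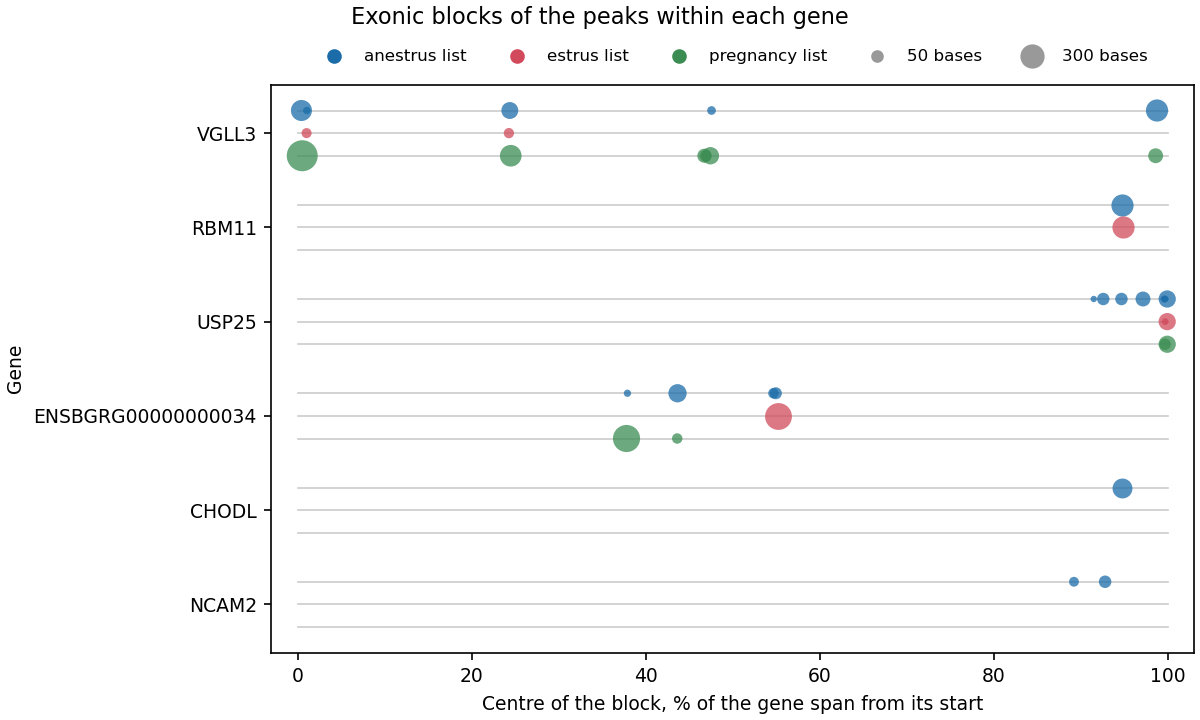
Exonic blocks of the peaks in the 6 genes, with the centre of each block as a percentage of the gene span on the x axis, the gene on the y axis, 1 line and colour per stage (blue anestrus, red estrus, green pregnancy) and the point area rising with the bases of the block. Anestrus blocks of RBM11, USP25 and CHODL all lie beyond 90%, those of VGLL3 lie at both ends and near the middle, and CHODL and NCAM2 have points on the anestrus line alone.

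Whether the same positions were listed in the other stages was examined for the stretch that all 3 lists cover, where estrus had 5 peaks in 5 genes and pregnancy 6 peaks in 5 genes. With 1 shared base on the genome as the criterion, 3 of the 9 anestrus peaks (33.3%) overlapped an estrus peak, and 3 of the 5 estrus peaks (60.0%) overlapped an anestrus peak. For pregnancy, 5 of the 9 anestrus peaks (55.6%) and 4 of the 6 pregnancy peaks (66.7%) overlapped. When at least 50% of both peaks had to be shared, the pregnancy overlap dropped to 3 of 9 anestrus peaks, 33.3%, and the estrus overlap remained 33.3%. With only peaks at an FDR under 0.05 in each list, 37.5% of the anestrus peaks overlapped an estrus peak and 37.5% a pregnancy peak. The larger share for pregnancy thus held only under the looser criterion with all peaks. By gene name rather than position, 7 of the 9 anestrus peaks (77.8%) were in genes that the estrus list also names, and 6 (66.7%) in genes of the pregnancy list. The lists were called separately, so a peak missing from 1 list is not shown to be absent there, and no difference between the stages was tested.

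By gene name, VGLL3, USP25 and ENSBGRG00000000034 had peaks in all 3 lists. The USP25 peak at the end of the gene had the same first and last base in anestrus and estrus (16186709 to 16187193), and the pregnancy peak began earlier, at 16186650, and ended at the same base. Its fold enrichment was 2.06 in anestrus, 1.77 in estrus and 2.24 in pregnancy. The second USP25 peak, with a fold enrichment of 1.56, was listed in anestrus alone. In VGLL3, the peak with 20.8, which the list assigns to exon 1, has 166 of its 180 bases in the block that starts at 969649. It overlapped an estrus peak with 13.8 by 61 bases of its blocks and a pregnancy peak with 17.8 by all 180 of its bases. That pregnancy peak also contained the anestrus peak of the 5′ UTR, so 2 anestrus peaks correspond to 1 pregnancy peak. The 3′ UTR peak of VGLL3 shared 150 bases with a pregnancy peak with a fold enrichment of 4.15 and had no counterpart in the estrus list.

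In ENSBGRG00000000034 the fold enrichments were 8.42 in anestrus, 7.89 in estrus and 7.56 in pregnancy, at different places. The gene had an FPKM below 0.1 in every input library, so each is a ratio over very little input RNA. The anestrus peak shared 61 bases with the pregnancy peak and none with the estrus peak, which began 239 bases beyond its end. The log10 FDR was -2.79 in anestrus, but -0.94 in estrus and -1.07 in pregnancy, both above an FDR of 0.05. RBM11 had its 3′ UTR peak in anestrus and estrus, with 271 of 301 bases in common and fold enrichments of 3.48 and 3.51. No pregnancy peak is listed there. A pregnancy peak at 14212338 to 14212548 begins at the first base of RBM11 but is named for a minus strand gene, so counts by gene name do not give it to RBM11. The log10 FDR of that peak was -1.07, above an FDR of 0.05. CHODL and NCAM2 had a peak in the anestrus list alone. The estrus list is not said to leave out estrus replicate 2, which the study dropped after its principal component analysis. Its input FPKM was 1.66 for CHODL and 0.139 for NCAM2, and whether it bears on their missing estrus peaks was not tested.

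**Figure D3:**
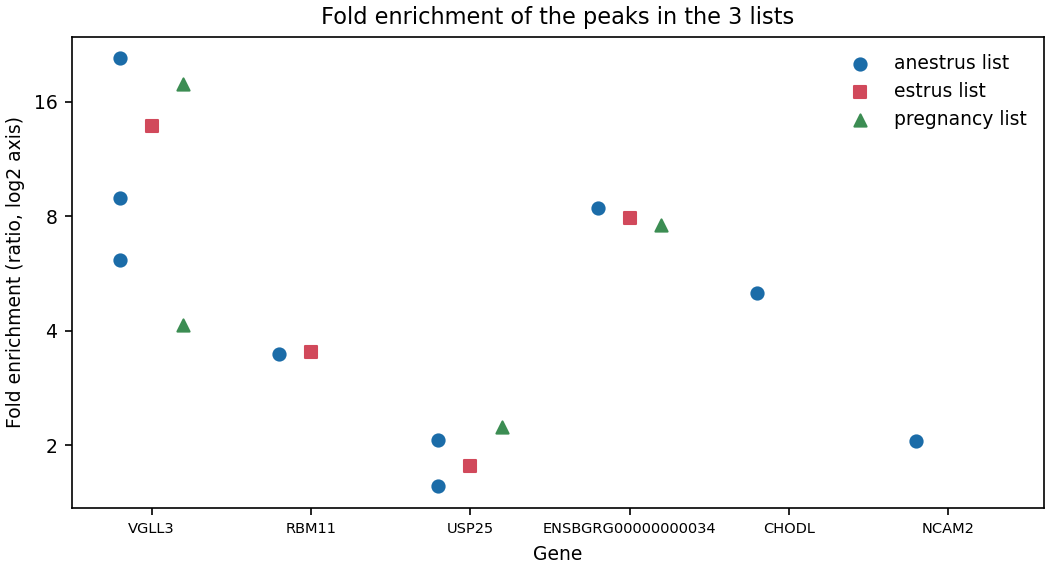
Fold enrichment (ratio, log2 axis) of every listed peak in the 6 genes, by stage (blue circles anestrus, red squares estrus, green triangles pregnancy), 1 point per peak. The points of USP25 lie between 1.56 and 2.24 and those of ENSBGRG00000000034 between 7.56 and 8.42, and CHODL and NCAM2 have 1 anestrus point each.

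Expression of these genes in anestrus was read from the 3 input libraries as FPKM, a count of fragments corrected for how long the exons are and how many reads were mapped. In ovarian tissue, fewer cells of a type and less RNA per cell cannot be told apart in these values. CHODL had 11.6, 4.15 and 18.7 in replicates 1, 2 and 3, or 11.5 ± 7.28 (SD, n = 3). Its lowest and highest libraries differed more than those of any other of the 5 genes with a symbol on the FPKM scale. USP25 had 13.2, 7.37 and 9.90, or 10.1 ± 2.91 (SD, n = 3). VGLL3, the gene with the most peaks, had 6.41, 2.24 and 2.81, with 3.82 ± 2.26 (SD, n = 3), and replicate 1 stood above the other two. RBM11 had 3.85, 1.88 and 4.20, or 3.31 ± 1.25 (SD, n = 3). NCAM2 had 1.99, 2.65 and 1.75, or 2.13 ± 0.466 (SD, n = 3), the smallest spread of the 5. Replicate 2 was the lowest of the 3 libraries for every one of these genes except NCAM2, where it was the highest. ENSBGRG00000000034 stood apart, with 0.0264, 0.00574 and 0.0344, all near 0. Its fold enrichment of 8.42, the third largest, is therefore a ratio over very little input RNA. The order of the genes by FPKM was not their order by enrichment: USP25 was the second highest in mean FPKM and held the lowest fold enrichment, and the ranges of VGLL3, RBM11 and NCAM2 overlapped in FPKM.

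The genes with a peak were then set beside the other plus strand genes of the same stretch, since only these can be said to have no peak in the list. The expression table holds 16 such genes, 6 with a peak and 10 without. All 6 genes with a peak had an FPKM above 0 in every anestrus library, against 6 of the 10 without, and 2 of the 10 were at 0 in all 3. The median FPKM of the genes with a peak was 5.13, 2.44 and 3.51 in replicates 1, 2 and 3, and that of the genes without was 2.19, 1.40 and 1.44. On the log2(FPKM + 0.1) scale the difference of the medians was 1.15, 1.04 and 1.46, or 1.22 ± 0.22 (SD between libraries, n = 3), higher with a peak in 3 of 3 libraries. The libraries share the same 16 genes, so this spread does not cover the choice of genes, and no test over genes was made. The peaks were also called against input RNA of the same stage, where a gene without RNA could hardly be listed. Detection in the input is thus tied to how both sets were formed, and the difference of the medians is not free of this.

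The direction of this difference depended on which genes stood for those without a peak. The 6 genes with a peak spanned 22208 to 601897 bases, but 6 of the 10 genes without a peak were shorter than 5000 bases, and their median span was 1208. Among genes that span at least 5000 bases, an alternative chosen after the values were seen, 4 genes without a peak remained and the difference was -0.58 ± 0.35 (SD, n = 3), lower with a peak in 3 of 3 libraries. With a minimum mean FPKM of 1, which left 5 genes with and 5 without, it was -1.25 ± 0.64 (SD, n = 3). With a minimum of 0.1 it was 0.46 ± 0.54 (SD, n = 3), and against all 167 other genes of the table it was 0.47 ± 0.61 (SD, n = 3), with anestrus replicate 2 at -0.16 and -0.12, so these differences were smaller than the spread between libraries. Genes of the table beyond the stretch are not shown to lack a peak. The incomplete last line of the list, which was left out, names a gene among them.

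Several well-expressed genes had no anestrus peak. ENSBGRG00000000028, a gene of 204 bases, had an FPKM of 114, 76.3 and 93.3 in the 3 libraries. ROBO1, a receptor for SLIT guidance proteins, had 24.5, 9.87 and 10.6, and GBE1, the branching enzyme of glycogen synthesis, had 9.68 to 13.1. The values of ROBO1 and GBE1 lie within or above the 4.15 to 18.7 of CHODL, and neither ROBO1 nor GBE1 has a peak in this stretch of the estrus or pregnancy list. CXADR, a cell adhesion receptor of tight junctions, had 3.57, 2.26 and 2.50, and ENSBGRG00000000020 had 2.44, 2.98 and 2.28, both within the range of VGLL3, RBM11 and NCAM2. At these levels of FPKM, genes with and without a listed peak overlapped.

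**Figure D4:**
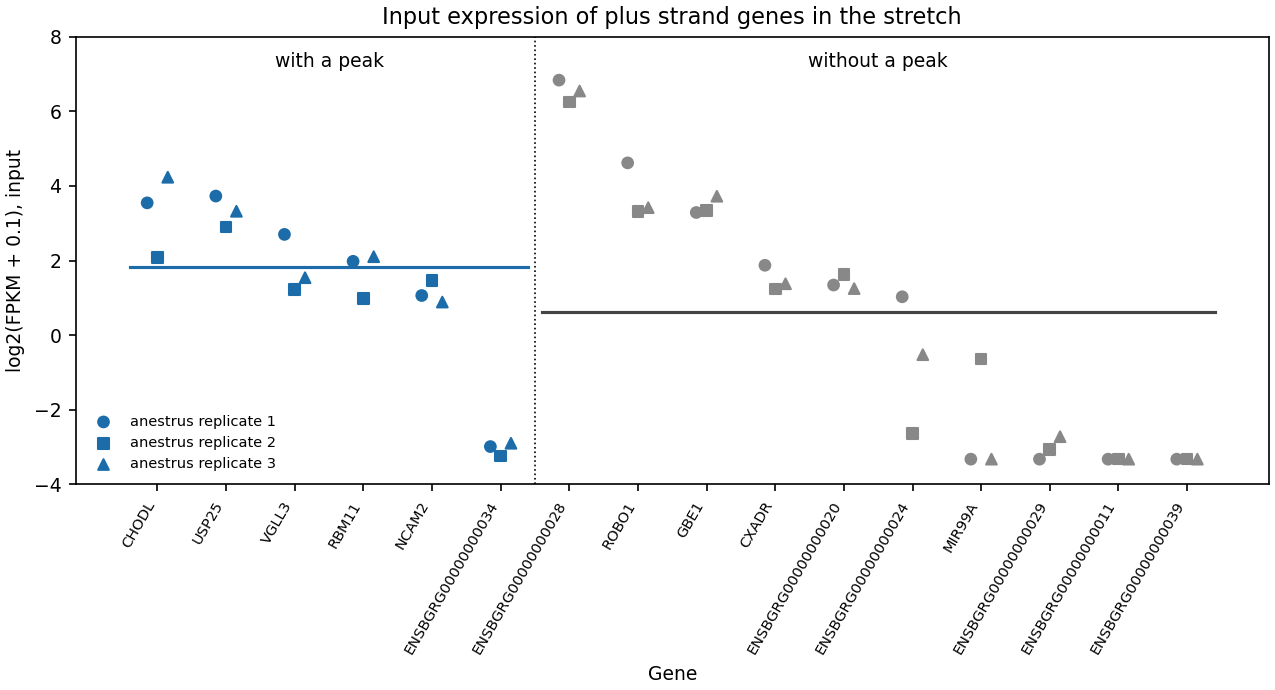
Input expression of the 16 plus strand genes of the stretch as log2(FPKM + 0.1), 1 point per gene and anestrus library (circle, square and triangle for replicates 1, 2 and 3), with 6 genes with a peak in blue and 10 without in grey. The lines mark the mean over libraries of the median over genes, which is higher with a peak by 1.22, while ENSBGRG00000000028, ROBO1 and GBE1 without a peak sit among or above the highest genes with one.

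Finally, the expression of the 6 genes was compared between anestrus and the other stages with limma on log2(FPKM + 0.1). The fit covered 130 genes, those whose mean FPKM over all 9 input libraries reached 0.1. It used the 8 libraries that the study kept, without estrus replicate 2. ENSBGRG00000000034 was too low for this minimum, so 5 of the 6 genes were tested. The study's standard asks for a log2 fold change of 1 or more in either direction together with a p, before adjustment, under 0.05. By this standard 0 of the 5 were called in estrus against anestrus, where 1.54% of all tested genes were called, and 0 of 5 in pregnancy against anestrus, where 2.31% were called. None of the 5 had an unadjusted limma p under 0.05 or an adjusted p under 0.05 in either comparison. Both comparisons share the anestrus libraries. The median log2 fold change of the 5 genes was -0.46 in estrus and 0.25 in pregnancy, against 0.07 and -0.03 over all genes tested. An exact permutation test of a single gene cannot go below p = 0.1 with these group sizes.

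CHODL came closest to a difference. Its FPKM was 3.98 and 8.13 in the estrus libraries and 3.83, 4.35 and 4.98 in pregnancy, against 4.15 to 18.7 in anestrus, so both stages overlapped with anestrus through anestrus replicate 2. Its log2 fold change was -1.13 in pregnancy (standard error 0.50, limma adjusted p = 0.874) and -0.75 in estrus (standard error 0.56, limma adjusted p = 0.743). The pregnancy value missed the study's standard by its unadjusted limma p of 0.0501, and passed it with a pseudocount of 1 (log2 fold change -1.02, unadjusted limma p of 0.0483). The exact two-sided permutation p was 0.3 and 0.4. Without anestrus replicate 2 these values were -1.73 and -1.36 and passed the standard in both comparisons, and without anestrus replicate 3 they were -0.66 and -0.28. In pregnancy it also passed without estrus replicate 1 or 3, which leave its fold change as it is and alter only the shared spread.

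NCAM2, the other gene with a peak in anestrus alone, had 1.23 and 1.44 in estrus, both below the 3 anestrus libraries (exact permutation p = 0.2), with a log2 fold change of -0.62 (standard error 0.55, limma adjusted p = 0.743). In pregnancy it had 2.15, 1.04 and 4.79, on both sides of the anestrus range, with a log2 fold change of 0.08. This turned to -0.46 without pregnancy replicate 3 and to -0.05 without anestrus replicate 3.

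VGLL3 had 2.18 and 2.81 in estrus and 5.80, 3.55 and 5.17 in pregnancy, overlapping with the 2.24 to 6.41 of anestrus, and its log2 fold changes were -0.46 (standard error 0.44) and 0.45 (standard error 0.39). Without anestrus replicate 1, the highest of its 3 anestrus libraries, they were -0.02 and 0.89, and without anestrus replicate 2 they were -0.76 and 0.15. RBM11 and USP25 had log2 fold changes of 0.52 and 0.29 in estrus and 0.25 and 0.25 in pregnancy, all with overlapping libraries. Without anestrus replicate 2 the pregnancy value turned to -0.10 for RBM11 and was 0.04 for USP25, and the estrus values were 0.17 and 0.09. ENSBGRG00000000034 had 0.0947 and 0.0218 in estrus and 0.0521, 0.0801 and 0.0412 in pregnancy, so that all 3 pregnancy libraries exceeded all 3 of anestrus, at values near 0. The exact permutation p was 0.1, the smallest possible.

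Estrus replicate 2, which the study left out after its principal component analysis, was low for several of these genes. It had an FPKM of 0.135 for VGLL3, 0.139 for NCAM2 and 1.66 for CHODL, each below all 8 other libraries, while its 9.12 for USP25 and 2.55 for RBM11 lay within their range. The estrus peak list is not said to leave this library out. Whether it bears on the estrus peaks missing from CHODL, NCAM2 and the VGLL3 3′ UTR was not tested. With estrus replicate 2 included in the fit, the estrus log2 fold change was -1.61 for VGLL3, -1.48 for NCAM2 and -1.33 for CHODL. In estrus against anestrus, 0 of the 5 genes then passed the standard, against 5 of all 130 genes.

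**Figure D5:**
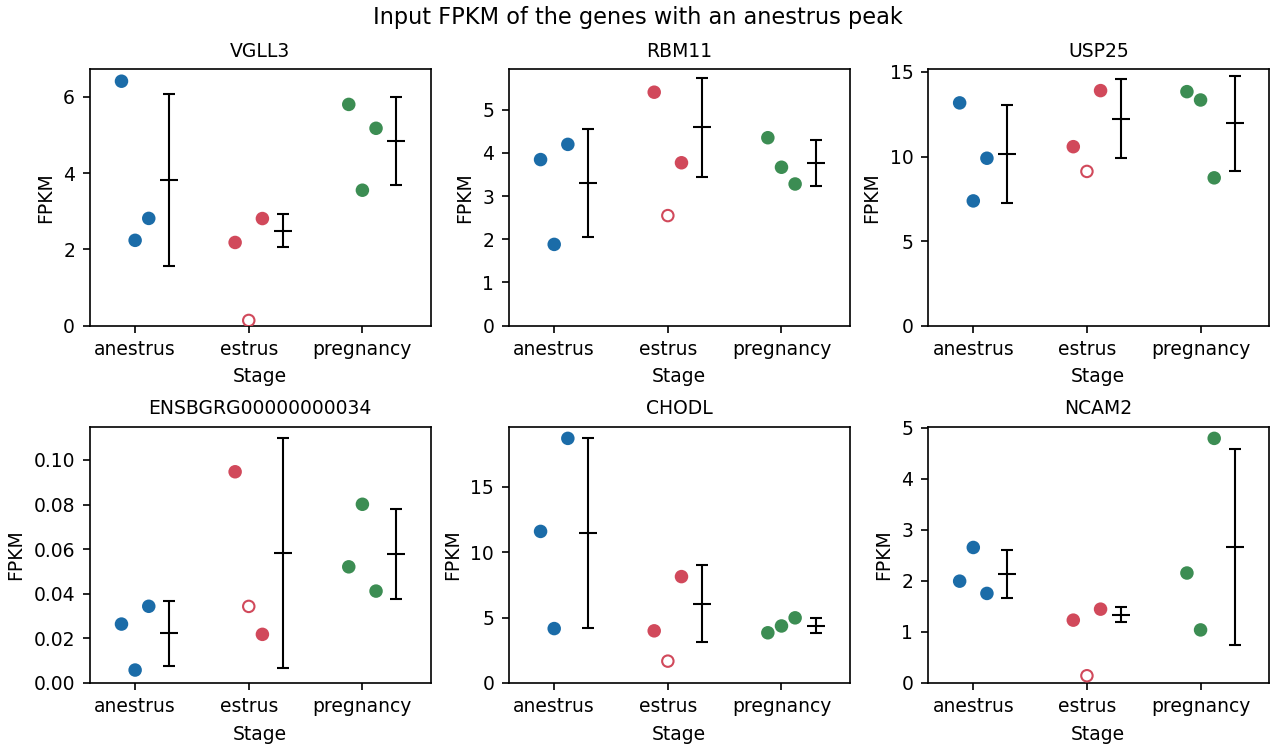
FPKM of the 6 genes in the 9 input libraries by stage, 1 point per library (blue anestrus, red estrus, green pregnancy), with the mean ± SD beside them as bars. The open red point is estrus replicate 2, which is left out of the mean and is the lowest library for VGLL3, CHODL and NCAM2, and the anestrus libraries of CHODL range from 4.15 to 18.7.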

How the data were processed

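Immunoprecipitated and input libraries were made from poly(A) RNA of the same ovaries. The authors aligned reads with HISAT2 2.0.4, quantified genes with StringTie as deposited FPKM values, and annotated peaks with ChIPseeker 1.18.0. The peak caller and the assembly name are not given in the sources used here. In the deposited peak lists, 1 per stage, the authors give the fold enrichment as a ratio, the p-value in a column named score, and p and FDR as log10 in columns of their own. The depth behind these values is unknown. Tables of the authors' own comparison of peaks between stages (log2 fold change, p and FDR) were not used. An incomplete last line of each file was left out. The strand of a list was read from its order by strand and position.

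Overlaps and medians were computed with Python 3.11.15, numpy 2.4.6 and pandas 2.3.3, and figures were drawn with matplotlib 3.10.9. Expression was tested with limma 3.58.1 in R 4.3.3 with a trend, with Benjamini-Hochberg adjustment over 130 genes. The fit was first run on simulated data, with log2 changes larger than any given here for the 5 genes. That run therefore does not cover changes of the size reported. Labels give separate replicates but do not say for the numbers that they pair libraries across stages. The genes named are all those with an anestrus peak and the 5 genes without one that had the highest mean FPKM. Genes named beside these under other observations were chosen after their values were seen, except the leukocyte markers, which are from the marker list. The members and lists were chosen with earlier results of these data known. All 5 symbols of genes with a peak were found in the RefSeq table of the assembly Bosgru_T2T1.0, from which no coordinates were taken. Alternatives were pseudocounts, minimum FPKM, stricter peaks, other overlap criteria, quantile normalization, the replicate block, estrus replicate 2 included and single libraries left out.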

Additional observations from a re-analysis of the deposited data

How the results depend on the processing

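With an FDR under 0.05, 8 peaks remained and the median fold enrichment was 4.255. With a fold enrichment of at least 5, 5 peaks in 3 genes remained, with a median of 8.42. Adding the incomplete last line gave a median of 4.255 over 10 peaks. Counting shared genes in place of shared bases moved the estrus overlap to 77.8%. The difference in log2 expression between genes with and without a peak was 0.83 with a pseudocount of 1, 0.46 with a minimum mean FPKM of 0.1, 0.47 against all genes of the table, 0.98 as a mean over genes, 0.81 with the incomplete line and 2.25 against the 8 genes without a peak in any list. The settings with 0.46 and 0.47 had a negative value in anestrus replicate 2. The setting with 0.47 includes genes beyond the stretch, which are not shown to lack a peak. The mean reversed to -1.25 with a minimum mean FPKM of 1 and to -0.58 for genes spanning at least 5000 bases, settings that leave 5 and 4 genes without a peak. The incomplete line, the span and the absence from any list were alternatives chosen after seeing the data. Without 1 anestrus library the difference was 1.10 to 1.31.

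Of the 5 genes tested, 1 (CHODL) passed the standard in pregnancy against anestrus with a pseudocount of 1, where 1 of all 130 genes passed. Under the replicate block the count was also 1 in pregnancy, CHODL with a log2 fold change of -1.13 and an unadjusted limma p of 0.0225, and 0 in estrus. Over all 130 genes, 4 passed under the block in pregnancy and 1 in estrus. With the mean of each stage taken off, same-numbered libraries of different stages correlated at -0.17 to 0.39 over 7 pairs. Differently numbered libraries spanned a similar range, -0.39 to 0.48 over 14 pairs. Estrus replicates 1 and 3 then mirror each other, with -0.17 and 0.17 against anestrus replicate 1. The correlations therefore cannot decide whether the numbers pair libraries. The paper states that the yaks were euthanized, so libraries of different stages come from different animals. With 1 anestrus or pregnancy library left out, the count was 0 to 1 in both comparisons, against 1 to 4 of all 130 genes in each. A fit without estrus replicate 1 or 3 leaves 1 estrus library, which is assumed to vary like the others. NCAM2 in pregnancy ranged from -0.46 to 0.59 with 1 library left out and was -0.24 with quantile normalization, and RBM11 in pregnancy ranged from -0.10 to 0.46. The cause of these changes was not tested. Without counts, no limit set by depth could be computed.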

Other observations

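In the same stretch, 3 genes were named in the other lists but not in the anestrus list. CXADR had an estrus peak at 18044582 to 18071143, annotated as 3′ UTR, with a fold enrichment of 2.89 and a log10 FDR of -3.26, at an anestrus FPKM of 2.26 to 3.57. ENSBGRG00000000024 had a pregnancy peak at its last exon, 28 of 28 (fold enrichment 4.32, log10 FDR -0.60), and its anestrus FPKM was 1.94, 0.0612 and 0.596. LIPI, a lipase gene of the minus strand, is named for a pregnancy peak (14212338 to 14212548, fold enrichment 4.86, log10 FDR -1.07). This peak begins at the first base of RBM11, whose anestrus peak lies 20678 bases further along.

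The incomplete line that follows the 9 anestrus peaks names GABPA, a subunit of an ETS family transcription factor, at 27544221 to 27546263 with a fold enrichment of 1.79 and a log10 FDR of -2.09. Its FPKM was 8.16, 9.21 and 11.7 in the anestrus libraries. The leukocyte markers in the expression table, CD84 and CD96, had an FPKM of 0.760 to 2.66 and of 0.732 to 1.07 in the anestrus libraries.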
